A study of Homo sapiens with 6 samples.

Results

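Metallothioneins are small cysteine-rich proteins that bind zinc and copper ions and buffer them inside the cell. Their genes are switched on by MTF1, a zinc finger transcription factor that senses free zinc and binds short promoter motifs called metal response elements. MTF1 also drives SLC30A1, which encodes the zinc exporter ZnT1 of the plasma membrane, so metallothioneins and SLC30A1 are widely used as a readout of cellular zinc. The genes described here are 6 metallothioneins (MT1E, MT1F, MT1G, MT1M, MT1X and MT2A), the regulator MTF1 and the exporter SLC30A1. They were chosen by gene symbol, and all 8 are listed among the 56638 gene symbols of the deposited count files.

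RNA sequencing compared 3 libraries of colorectal cancer cells transfected with control siRNA and 3 transfected with siRNA against GLCC1, a long noncoding RNA that the labels call lncRNA-AF339830. The question put by the design is which genes change after knockdown of this RNA. Both groups share the parental line, named SW480 in the labels and DLD-1 in the study's methods, the culture medium and transfection with an siRNA, and no untransfected cells were compared. The groups used are those of the sample titles, whereas the library names attach the letters NC to the libraries titled as knockdown and the letters AF to those titled as control, and with the groups exchanged every direction given here would turn. The genotype labels give the same siRNA designation to all libraries of a group, and its sequence is not given there. Each sample title ends in a number after the word siRNA, read here as a replicate number. The titles do not say whether it marks a different siRNA. A single cell line was used and nothing in the labels says that the libraries came from separate cultures, so p-values measure the spread between these libraries only.

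Gene counts summed to between 11948790 and 19042516 read pairs, with GLCC1 siRNA replicate 2 the smallest library. That library also stood apart from its group, with a chi-square per degree of freedom of 16.3 and 17.1 against the other GLCC1 siRNA libraries, where the other pairs of one group gave 1.84 to 3.84. Values without it are given where they change a call or a direction among the 8 genes of the set, or the number of genes called in a list. They are not given for every other gene named. The share of read pairs on no annotated gene was 11.2% to 11.5% in the control and 12.5% to 14.2% in the GLCC1 siRNA libraries, and its part in the results was not tested. Of 10 colon epithelial markers, 8 had a mean of at least 50 CPM in both groups (counts per 1000000 counted read pairs, with library sizes scaled by the TMM method of edgeR). Of 6 markers of other cell types, PTPRC, PECAM1 and COL1A2 had no count in any library, ALB had 3 and 4 counts per group, and COL1A1 and DES fell from 13.4 and 12.9 CPM to 7.38 and 4.55 CPM. The summed level of the epithelial markers was 4947 to 5366 CPM in the control and 2167 to 2480 CPM in the GLCC1 siRNA libraries, most of it from KRT8, which fell from 3584 to 1177 CPM, and KRT18, which fell from 423 to 120 CPM, whereas CDH17 rose by 0.45 on the log2 scale. The summed level of the other markers was 24.1 to 29.5 and 10.5 to 14.1 CPM. Their part in the results was not tested, and in bulk RNA fewer cells with a transcript cannot be told apart from less of it per cell. GLCC1 has no row in the files, so the knockdown could not be checked.

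The promoters of these genes are shown first, because the metal response element is the sequence through which MTF1 acts on them. RefSeq windows of 300 bases, from 250 before to 50 after the transcription start on GRCh38.p14, were found for 4 of the 8 genes (MT1X, MT2A, MTF1 and SLC30A1), and there was no entry for MT1E, MT1F, MT1G and MT1M. The 7-base cores TGCACNC and TGCGCNC were searched on both strands, and capitals mark each match. MT1H, a neighbouring metallothionein without a count in these libraries, is printed for contrast.
MT2A, chr16:56608334-56608633, plus strand: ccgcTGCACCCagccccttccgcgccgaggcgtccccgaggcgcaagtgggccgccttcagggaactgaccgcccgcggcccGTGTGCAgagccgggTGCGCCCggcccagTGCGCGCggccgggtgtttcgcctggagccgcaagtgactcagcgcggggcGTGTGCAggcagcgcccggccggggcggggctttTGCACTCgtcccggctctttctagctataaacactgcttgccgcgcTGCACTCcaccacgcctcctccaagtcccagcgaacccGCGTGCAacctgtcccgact
MT1X, chr16:56682220-56682519, plus strand: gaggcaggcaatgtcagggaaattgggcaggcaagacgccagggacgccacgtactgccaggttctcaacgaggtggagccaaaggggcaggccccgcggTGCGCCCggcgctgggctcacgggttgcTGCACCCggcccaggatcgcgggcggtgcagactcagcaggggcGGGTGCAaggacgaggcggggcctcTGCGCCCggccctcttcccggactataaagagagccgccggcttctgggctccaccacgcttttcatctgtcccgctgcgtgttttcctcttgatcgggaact
SLC30A1, chr1:211579112-211579411, minus strand: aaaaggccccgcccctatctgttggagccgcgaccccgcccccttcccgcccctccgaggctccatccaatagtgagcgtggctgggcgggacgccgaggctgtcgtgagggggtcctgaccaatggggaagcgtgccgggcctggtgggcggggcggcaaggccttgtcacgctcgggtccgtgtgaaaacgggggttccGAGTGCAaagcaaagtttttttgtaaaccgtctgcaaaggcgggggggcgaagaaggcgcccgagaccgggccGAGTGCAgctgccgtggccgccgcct
MT1H, chr16:56669564-56669863, plus strand: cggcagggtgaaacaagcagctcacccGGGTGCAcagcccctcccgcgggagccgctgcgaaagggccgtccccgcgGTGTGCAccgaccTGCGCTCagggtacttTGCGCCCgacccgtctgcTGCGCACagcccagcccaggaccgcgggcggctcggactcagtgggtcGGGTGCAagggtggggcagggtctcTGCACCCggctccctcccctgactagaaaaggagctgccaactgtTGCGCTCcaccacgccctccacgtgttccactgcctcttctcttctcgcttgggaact

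The window of MT2A held 8 cores, 5 on the strand of the gene and 3 on the other, and none of them overlapped another. That of MT1X held 4 and that of SLC30A1 held 2, both on the other strand. The window of MTF1 itself held 0 cores, which says only that these letters are not in its 300 bases. Of 35116 promoter windows of the same length, 29.6% held at least 1 core, 8.60% at least 2, 0.601% at least 4 and 0.0199% at least 8. MT1H also held 8 cores, and MT1B and MT4 held 3 each, although none of these 3 metallothioneins had a count. In MT1X, MT1H and MT1B, a core started 53 bases before the transcription start, and another on the opposite strand 78 (MT1X and MT1H) or 79 (MT1B) bases before it. A match is a description of the letters and not a site shown to be bound.

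Metallothionein mRNA was higher in the GLCC1 siRNA libraries. MT2A, MT1E and MT1X rose 1.97-fold, 2.88-fold and 3.06-fold, and MTF1 and SLC30A1 rose 1.63-fold and 1.55-fold. MT1F did not pass the test, and MT1G and MT1M were at or near 0 counts and were not tested. Thus 5 of the 8 genes rose and 0 fell at an adjusted p under 0.05 in edgeR, where 14.9% of the 23074 genes tested rose and 16.7% fell. All 5 were higher in each GLCC1 siRNA library than in each control library, a pattern held by 22.3% of the tested genes. The 6 tested genes of the set had a median log2 fold change of 0.84, beside 0.03 for all genes tested. With library totals as the only scaling the median of all genes moved to 0.15, and the split of called genes from 3429 up and 3864 down to 4735 up and 2797 down.

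**Figure D1:**
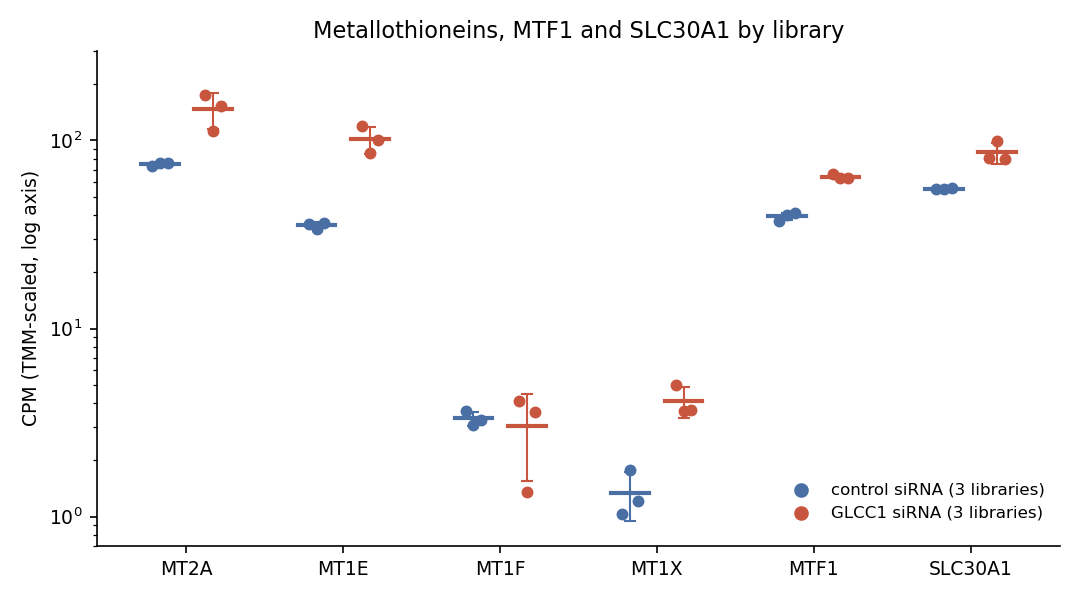
CPM of each library on a log axis for the 6 genes of the set that were tested; points are libraries, bars the group mean and whiskers the SD over 3 libraries. The GLCC1 siRNA libraries lie above every control library for all but MT1F, for which replicate 2 lies lowest at 1.35 CPM.

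MT2A, the most abundant metallothionein here, lies on chromosome 16 of GRCh37 from 56642496 to 56643409 on the plus strand, with 3 exons in its canonical transcript. It had 72.8, 75.4 and 75.6 CPM in the control libraries and 175, 113 and 153 CPM in the GLCC1 siRNA libraries. The control libraries were close together, while GLCC1 siRNA replicate 2 was the lowest of its group and still above every control. The log2 fold change was 0.98 with a standard error of 0.13 (edgeR, adjusted p = 7.07e-05), and 1.14 without that library.

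MT1E lies 16.9 kb after MT2A, from 56659387 to 56661024 on the same strand. Its levels were 36.1, 33.7 and 36.3 CPM in the control libraries and 119, 85.9 and 101 CPM in the GLCC1 siRNA libraries. All GLCC1 siRNA libraries lay far above the controls, with replicate 2 again the lowest. The log2 fold change was 1.53 with a standard error of 0.12 (edgeR, adjusted p = 5.98e-07), and 1.64 without GLCC1 siRNA replicate 2. Of the 14875 tested genes averaging 1 CPM or more, 173 had a larger log2 fold change than MT1E. Of all 23074 tested genes, 1418 did.

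MT1X, at the far end of the cluster from 56716382 to 56718108, was counted far less often. It had 15, 32 and 20 counts in the control libraries, or 1.03, 1.76 and 1.20 CPM. In the GLCC1 siRNA libraries it had 96, 46 and 66 counts, or 5.01, 3.66 and 3.69 CPM. The lowest GLCC1 siRNA library stood at 2.07 times the highest control library. The log2 fold change was 1.61 with a standard error of 0.24 (edgeR, adjusted p = 2.07e-04), with a 95% interval from 1.09 to 2.14.

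MT1F, from 56691643 to 56694610, had 3.63, 3.09 and 3.25 CPM in the control libraries and 4.12, 1.35 and 3.58 CPM in the GLCC1 siRNA libraries. Replicate 2 was far below the other GLCC1 siRNA libraries, and the groups overlapped. The log2 fold change was -0.08 with a standard error of 0.29 (edgeR, adjusted p = 0.864), with a 95% interval from -0.69 to 0.54. Without replicate 2 it was 0.23 and with library totals as the only scaling 0.043, neither past the test.

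MT1G, on the minus strand from 56700642 to 56701977, had 1, 0 and 0 counts in the control libraries and 1, 1 and 2 in the GLCC1 siRNA libraries. MT1M, from 56666571 to 56667893, had 0 counts in all 6 libraries. A count of 0 allows up to 3 counts per library, which was 0.165 to 0.206 CPM in the control and 0.156 to 0.239 CPM in the GLCC1 siRNA libraries, so a change in either gene was not detectable at this depth. These limits cover counting error only.

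Metallothionein genes resemble each other, and HTSeq by default leaves read pairs that align to several places uncounted. Of the 50-base windows of the canonical transcripts, 10.3% in MT1E, 10.2% in MT2A, 6.12% in MT1F and 18.0% in MT1X recurred in transcripts of another metallothionein gene or pseudogene. The shares were 19.9% in MT1G and 14.6% in MT1M. For MT1X, another 117 of its 355 windows are shared only with an unnamed gene that overlaps it on the same strand. Counts per metallothionein are therefore uncertain in level, most of all for MT1X.

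MTF1 lies on the minus strand of chromosome 1, from 38275246 to 38325264, with 11 exons in its canonical transcript. It had 37.4, 40.01 and 40.9 CPM in the control libraries. The GLCC1 siRNA libraries had 66.2, 63.4 and 63.4 CPM. Both groups were tight, and replicate 2 did not stand apart. The log2 fold change was 0.71 with a standard error of 0.09 (edgeR, adjusted p = 4.05e-05). SLC30A1, also on the minus strand of chromosome 1 (211744910 to 211752503), had 55.3, 54.9 and 56.1 CPM in the control and 80.3, 99.2 and 79.4 CPM in the GLCC1 siRNA libraries. Here replicate 2, the lowest of its group for MT2A, MT1E, MT1X and MT1F, was the highest. The log2 fold change of SLC30A1 was 0.64 with a standard error of 0.10 (edgeR, adjusted p = 2.89e-04), and 0.53 without replicate 2.

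Levels of different genes were compared per kilobase of canonical transcript. In the control libraries MT2A stood first at 186 ± 3.93 CPM per kb (SD, n = 3), followed by MT1E at 47.4 ± 1.94, SLC30A1 at 9.41 ± 0.107, MT1F at 7.82 ± 0.661, MTF1 at 4.97 ± 0.231 and MT1X at 3.30 ± 0.950. The ranges of neighbours in this order did not overlap. In the GLCC1 siRNA libraries MT2A reached 366 ± 78.8 CPM per kb (SD, n = 3), MT1E 136 ± 22.2, SLC30A1 14.6 ± 1.89, MT1X 10.2 ± 1.90, MTF1 8.10 ± 0.202 and MT1F 7.10 ± 3.45. MT1X thus passed MTF1 and MT1F in the order of means, but the range of MT1F, from 3.18 to 9.69, overlapped those of both MTF1 and MT1X. MT1E was scaled by a canonical transcript of 746 bases, where those of the other 5 metallothioneins have 398 to 425 bases. Those of SLC30A1 and MTF1 have 5893 and 7937 bases. Full lengths were used with no allowance for fragment size, so the place of SLC30A1 and MTF1 among the metallothioneins is uncertain.

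All metallothionein rows of the files were then summed, pseudogenes included. The sum was 118, 117 and 120 CPM in the control libraries and 307, 205 and 263 CPM in the GLCC1 siRNA libraries. The ratio of the group means was 2.19, and MT2A and MT1E together took 92.4% to 93.6% of the metallothionein counts of a control library and 95.8% to 96.7% of those of a GLCC1 siRNA library. Within this pool the makeup shifted. MT2A held 63.2% ± 1.48 (SD, n = 3) of the counts in the control and 56.7% ± 1.69 in the GLCC1 siRNA libraries, while MT1E went from 29.95% ± 0.910 to 39.6% ± 1.97.

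Setting each metallothionein against MT2A in the same library removes depth and scaling. Per 100 MT2A counts, MT1E had 49.6, 44.7 and 48.0 counts in the control libraries and 68.0, 76.3 and 65.7 in the GLCC1 siRNA libraries. MT1X had 1.41, 2.34 and 1.59 against 2.86, 3.25 and 2.41. Both ratios were higher in every GLCC1 siRNA library than in any control library. The ratios of MT1F and MT1A were lower. MT1F had 4.99, 4.09 and 4.30 per 100 MT2A counts in the control and 2.36, 1.20 and 2.34 in the GLCC1 siRNA libraries. MT1A, a metallothionein outside the set, had 5.27, 2.99 and 4.06 against 1.58, 0.989 and 1.13. Since MT2A rose and neither gene passed its own test, a lower ratio does not show a fall of MT1F or MT1A. For each of these 4 ratios the two-sided exact permutation test gave p = 0.1, also after Benjamini-Hochberg adjustment over the 4, which is the smallest p that 3 libraries against 3 allow. The pairs of genes were chosen after their values were seen.

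**Figure D2:**
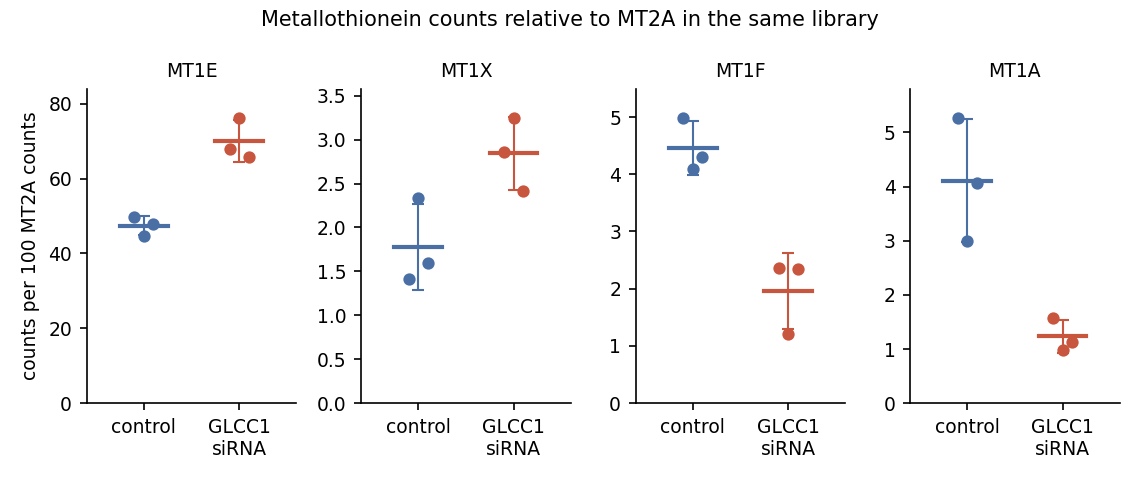
Counts of MT1E, MT1X, MT1F and MT1A per 100 MT2A counts of the same library (vertical axes, each from 0); points are libraries, bars the mean and whiskers the SD over 3 libraries. MT1E and MT1X lie higher and MT1F and MT1A lower in every GLCC1 siRNA library than in the controls.

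The other metallothionein genes had few or no counts. Of 16 listed, 14 are in the files, 6 of them had no count and 3 were tested, none of which passed in edgeR. MT1A had 3.84, 2.26 and 3.07 CPM in the control and 2.76, 1.11 and 1.73 CPM in the GLCC1 siRNA libraries, so the groups overlapped. Its log2 fold change was -0.64 (standard error 0.30, edgeR adjusted p = 0.119, unadjusted p = 0.0492), and it passed in 3 of 12 alternative settings as lower, with adjusted p between 0.0244 and 0.354 over the 12. The pseudogenes MT1DP and MT1XP1 had 9 and 6 counts in the control group and 17 and 1 in the GLCC1 siRNA group. MT1L, MT1CP, MT1P1, MT1P3 and MT2P1 had between 1 and 6 counts over all libraries. MT3, known from brain, and MT4, known from stratified epithelium, had 0.

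The genes on either side of the metallothionein cluster did not rise with it as a block. Of the 3 tested genes reported on its MT4 side, 3 fell and 0 rose. Their lowest coordinates lie between 143 and 179 kb before MT2A. BBS2, among these 3, extends into the cluster, where it overlaps MT4 on the opposite strand. On its MT1X side, 2 of 9 tested genes rose and 2 fell, with lowest coordinates between 122 and 637 kb from MT2A. Without GLCC1 siRNA replicate 2, when 44.1% of all tested genes passed, HERPUD1, CETP and CPNE2 on that side also passed as higher, and the neighbours counted 5 up and 5 down. In all, 7 of these 12 tested neighbours passed, or 2 up and 5 down, where 31.6% of all tested genes passed. OGFOD1, a prolyl hydroxylase of a ribosomal protein, had 29.2, 27.8 and 29.4 CPM in the control and 14.1, 14.6 and 13.8 CPM in the GLCC1 siRNA libraries. Its groups lay well apart, and it changed by -1.03 on the log2 scale with a standard error of 0.10 (edgeR, adjusted p = 4.98e-06). NUDT21, a factor of mRNA cleavage and polyadenylation, and NUP93, a scaffold protein of the nuclear pore, changed by -0.79 and -0.67. NLRC5, an interferon-inducible activator of MHC class I genes, rose by 1.15. The positions of neighbours are those of GRCh37, and whether any of these genes share a control with the metallothioneins was not tested.

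The genes that move zinc across membranes were compared next. Besides SLC30A1, the list of exporters held 10 genes, of which 7 were tested, and 1 rose and 2 fell, where 14.9% of all tested genes rose and 16.7% fell. SLC30A6 and SLC30A7, which carry zinc into the secretory pathway, fell from 48.8 ± 1.74 to 31.7 ± 5.89 CPM and from 58.2 ± 1.57 to 41.8 ± 2.22 CPM (SD, n = 3). Their log2 fold changes were -0.63 and -0.48 (adjusted p = 0.00122 and 9.93e-04 from edgeR). SLC30A10, best known as a manganese exporter, rose from 0.137, 0.0551 and 0.422 CPM to 1.93, 1.43 and 1.12 CPM. It had 10 counts in the control and 75 in the GLCC1 siRNA group, and lies below the mean of 1 CPM required of genes named from a list, so it was picked after its values were seen. SLC30A5 and SLC30A9, counted at 59.6 and 173 CPM in the control libraries, had log2 fold changes of 0.00 and 0.09 that did not pass.

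Of 14 importers of the SLC39 family, 12 were tested, and 0 rose and 5 fell, beside 16.7% of all tested genes falling. Their median log2 fold change was -0.29, and -0.17 without GLCC1 siRNA replicate 2 and -0.16 with library totals as the only scaling. The median of all tested genes was 0.03, 0.02 and 0.15 in the same order. Without GLCC1 siRNA replicate 2, 1 importer rose and 5 fell, where 44.1% of all tested genes passed. The riser was SLC39A5, with 9 counts in the control and 26 in the GLCC1 siRNA group. With library totals alone 1 also rose and 5 fell, where 32.6% of all tested genes passed. Under a looser filter (1 count in any library) 0 rose and 6 fell, with SLC39A4 added, where 25.4% of all tested genes passed. SLC39A10, a zinc importer known to be repressed by MTF1 when zinc is high, had 125, 119 and 122 CPM in the control libraries and 69.3, 86.1 and 72.4 CPM in the GLCC1 siRNA libraries. The groups did not overlap, and its log2 fold change was -0.69 with a standard error of 0.10 (edgeR, adjusted p = 1.02e-04). SLC39A8 and SLC39A14, which carry zinc, iron and manganese into cells, fell by 1.55 and 0.84 on the log2 scale (adjusted p = 5.43e-06 and 7.14e-06 from edgeR). SLC39A14 stood at 206 ± 6.71 CPM (SD, n = 3) in the control and 115 ± 9.15 CPM in the GLCC1 siRNA libraries. SLC39A1 and SLC39A7 were lower by smaller amounts, with log2 fold changes of -0.41 and -0.38. SLC39A6 was among those that did not pass at 0.16, but it passed as higher with library totals alone (edgeR adjusted p = 0.0472). The 5 falls also passed in each of the 12 alternative settings.

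**Figure D3:**
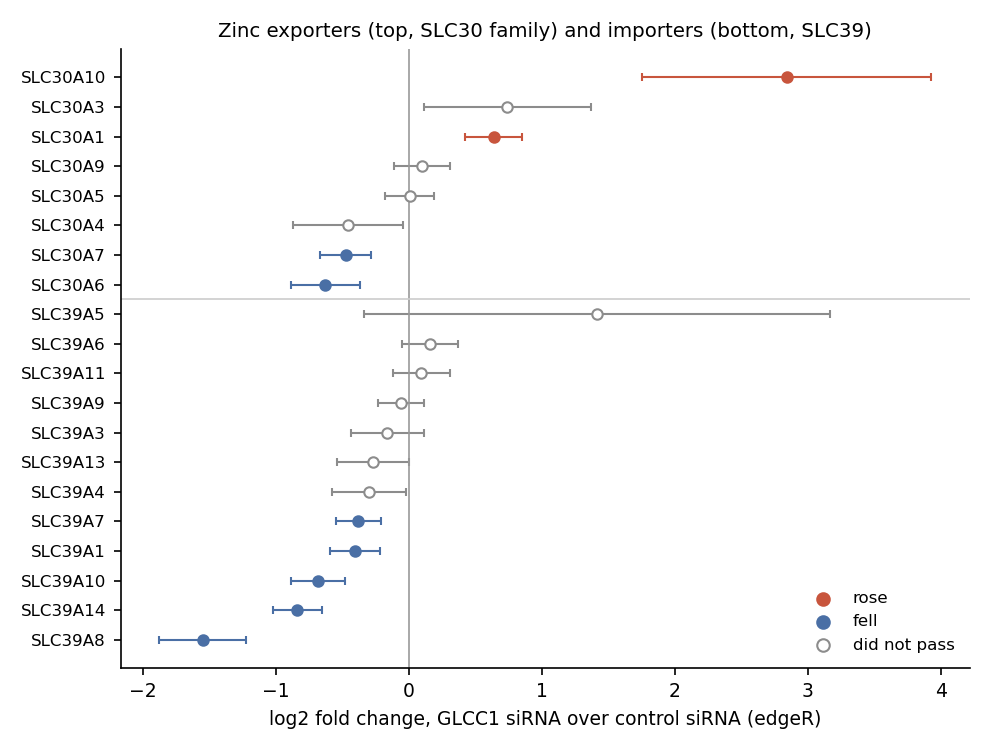
Log2 fold change from edgeR, GLCC1 siRNA over control siRNA, with derived 95% intervals, for the tested zinc exporters (top, with SLC30A1) and importers (bottom). Filled circles passed at an adjusted p under 0.05. SLC30A1 and SLC30A10 rose, SLC30A6, SLC30A7 and 5 importers fell.

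Other genes linked to MTF1 or to metal and oxidative stress moved in both directions. Of 13 listed, 12 were tested, and 2 rose and 6 fell (14.9% and 16.7% of all tested genes), with a median log2 fold change of -0.31. HMOX1, the heme oxygenase that heavy metals strongly induce, had 21.7, 21.1 and 23.8 CPM in the control and 14.7, 13.3 and 17.2 CPM after GLCC1 siRNA, so that it changed by -0.55 on the log2 scale with a standard error of 0.12 (edgeR, adjusted p = 0.00283). TXNRD2, a mitochondrial thioredoxin reductase, SEPW1, a selenoprotein, and NDRG1, a gene induced by nickel and hypoxia, had log2 fold changes of -0.56, -0.52 and -0.65. The call of NDRG1 was lost without GLCC1 siRNA replicate 2. GCLC, which makes the first step of glutathione synthesis, had -0.23 and did not pass (adjusted p = 0.0517 from edgeR). It passed as lower under a looser filter (1 count in any library) and without GLCC1 siRNA replicate 2. The heat shock genes HSPA1A and HSPA1B had -0.39 and -0.12 and did not pass either. NFE2L2, which encodes the oxidative stress factor NRF2, and KEAP1, its inhibitor, were the 2 that rose, with log2 fold changes of 0.42 and 0.36. The call of KEAP1, whose groups overlapped, was lost in 5 of the 12 alternative settings, each with a library left out. In 8 of the 12 alternative settings 4 or 5 genes of the list fell in place of 6, and TXNRD1, a cytosolic thioredoxin reductase, lost its call in 7. Without control replicate 2, control replicate 3 or GLCC1 siRNA replicate 1, 5 of the list passed in place of 8, with 1 up and 4 down each time. Of all tested genes, 23.2%, 23.1% and 28.5% passed there, in that order, in place of 31.6%. With library totals alone 2 of the list rose and 4 fell, where all genes called split into 4735 up and 2797 down.

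Likeness to MT2A was measured as the largest absolute difference between centred log2(CPM + 1) profiles over the 6 libraries, among 10374 other genes averaging 10 CPM or more. The 5 nearest genes were FAM78A, MC1R, LIMK1, PSKH1 and TNRC6C, with differences of 0.10 to 0.11. MTF1, at 0.36, had 238 genes nearer to MT2A than itself, MT1E at 0.40 had 358 and SLC30A1 at 0.53 had 1199. This is a description over 6 libraries in 2 groups.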

How the data were processed

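The authors sequenced paired-end reads of 2 × 150 bases, mapped them to hg19 with TopHat 2.0.11 and an Ensembl GRCh37 transcript index, and ran HTSeq in union mode. They deposited its unnormalised counts per gene symbol, 1 file per library. The HTSeq version and strand setting are not given in the sources used here. HTSeq tallies of reads on no gene (11.2% to 14.2% without a feature, 8.19% to 8.89% ambiguous) were left out of library sizes.

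As in the study's methods, a gene was tested if at least 1 group had 5 or more counts in total, which left 23074 of 56638. Counts were scaled by TMM and tested with the robust quasi-likelihood test of edgeR 4.0.16 under R 4.3.3 over all genes, with Benjamini-Hochberg adjustment and a threshold of 0.05. Every fold change has the GLCC1 siRNA group over the control. In data simulated for this comparison, 198 of 200 genes changed by 1 on the log2 scale were recovered among 22222 run, with 212 called. The changed genes were drawn from well-counted genes only, so recovery at low counts such as those of MT1X was not tested. They were also far fewer than the 7293 genes called in the data.

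Alternatives were DESeq2 1.42.0, its size factors in edgeR, library totals alone, a looser filter (1 count in any library) and a stricter one (10 in all libraries), a block for the replicate number, and each library left out. Genes, lists and tests were chosen with earlier results of these data known. All 8 genes and every metallothionein row with a count are named, and from each other list up to 4 called genes, by size of change, whose groups do not overlap and whose mean is 1 CPM or more. Other genes named from the lists (such as SLC30A10, SLC39A7, KEAP1 and those that did not pass) were picked after their values were seen. A gene of the neighbour list is not reported here and was left out of that list's counts. Positions and transcript lengths are from GENCODE 44 on GRCh37, matched by symbol (FAM192A through its current symbol), and promoters from RefSeq. A further list of 10 epithelial and 6 other markers checked the cell type. No pair of libraries within a group was a copy: the lowest chi-square per degree of freedom was 1.84. Counting error alone gives about 1, and identical counts give less. Pairs across groups were not compared.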

Additional observations from a re-analysis of the deposited data

How the results depend on the processing

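The 5 rises of MT2A, MT1E, MT1X, MTF1 and SLC30A1 passed in each of the 12 alternative settings, with adjusted p-values no higher than 0.00414. Leaving out single libraries gave log2 fold changes of 0.84 to 1.14 for MT2A, 1.40 to 1.64 for MT1E, 1.45 to 1.88 for MT1X, 0.67 to 0.73 for MTF1 and 0.53 to 0.69 for SLC30A1. The log2 ratio of the summed metallothionein CPM was 1.13, with 0.99 to 1.27 when libraries were left out and 1.14 to 1.25 under other scalings or with the 6 metallothioneins alone. MT1F ranged from -0.35 to 0.23 with a library left out, changed sign without GLCC1 siRNA replicate 2 (0.23) and with library totals alone (0.043), and passed in no setting.

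The number of genes called was 5221 to 9920 with a library left out, highest without GLCC1 siRNA replicate 2. These were 23.1% to 44.1% of the genes tested, beside 25.4% under the looser filter. Of the other metallothioneins, 1 passed (MT1A) in place of 0 under the looser filter and with the replicate block, and 0 to 1 with a library left out, the 1 without GLCC1 siRNA replicate 1. Of the zinc exporters, 5 passed in place of 3 under the looser filter, and 3 to 5 with a library left out. SLC30A3 and SLC30A4 joined them in both cases, and the 5 without a library came without GLCC1 siRNA replicate 2. Of the MTF1-linked genes, 5 to 8 passed with a library left out. Where a group was left with 2 libraries, the spread was shared with the other group in edgeR.

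Titles number the libraries of both groups 1 to 3 after the word siRNA, and these numbers were read as replicates. Same-numbered libraries did not deviate together, with correlations across 14875 genes of -0.13, -0.24 and -0.00139. With the replicate number as a block, 6522 genes passed in place of 7293, and the 5 rises held. Low counts limit MT1X and MT1F. MT1G was tested under the looser filter only and did not pass, and MT1M was tested in no setting.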

Other observations

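Genes of copper and iron handling were also read from the fit. Of 17 tested, 2 rose and 5 fell, beside 31.6% of all tested genes passing. Without GLCC1 siRNA replicate 2, when 44.1% of all tested genes passed, 5 rose and 5 fell. The numbers were the same with library totals alone, when 32.6% of all tested genes passed. ATOX1, a copper chaperone, fell from 29.5 ± 2.19 to 17.4 ± 1.67 CPM (SD, n = 3), a log2 fold change of -0.75. SLC31A1, the copper importer, and ATP7B, a copper-exporting ATPase, had log2 fold changes of -0.49 and -0.46. TFRC, the transferrin receptor that brings iron into cells, rose by 0.43 on the log2 scale. SOD1 and FTH1 had -0.06 and -0.01 and did not pass in edgeR with all libraries. FTH1 passed as higher without GLCC1 siRNA replicate 2 (edgeR adjusted p = 0.0184). That library had 619 CPM of FTH1, beside 1037 and 1198 CPM in GLCC1 siRNA replicates 1 and 3. Copper binding is shared by metallothioneins, and no metal was measured in these cells.

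Glucocorticoids are another known inducer of MT2A. Of 8 glucocorticoid-responsive genes listed, 7 were tested, and 2 rose and 2 fell, beside 14.9% and 16.7% of all tested genes. FKBP5, an HSP90 cochaperone, rose from 75.3 ± 2.33 to 150.2 ± 11.2 CPM (SD, n = 3) and SGK1, a kinase of ion transport, rose by 0.96 on the log2 scale. KLF9, a transcription factor, and PER1, a clock gene, had log2 fold changes of -1.12 and -1.32. The receptor gene NR3C1 had 6 counts in the control group and 7 in the GLCC1 siRNA group. TSC22D3 and DUSP1 had 0.22 and 0.27 and did not pass in edgeR with all libraries, but both passed as higher without GLCC1 siRNA replicate 2 (edgeR adjusted p = 0.0120 and 0.00878). In that setting 4 rose and 2 fell, where 44.1% of all tested genes passed.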
